A study of Mus musculus with 6 samples.

Results

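The genes described here are 30 mouse genes of the DNA damage checkpoint and of DNA repair, chosen by symbol from 24493 genes in a table of bulk RNA sequencing. All 30 were found in the table and all 30 passed the filter on low values, which kept the 13720 genes that reached 1 TPM in 2 or more libraries. TPM, the length-normalized share of transcripts, divides reads by transcript length and scales every library to the same total, so levels of different genes can be compared. The 6 libraries came from tumor cells sorted out of subcutaneous tumors of the pancreatic tumor cell clone 6419c5 in C57BL/6 mice. The treated group, 2 libraries, had received GAFCP, a combination of gemcitabine, abraxane, a CD40 agonist and antibodies that block PD-1 and CTLA-4. The control group, 4 libraries, came from tumors of the same clone without that combination. Only 1 tumor clone was used and no group received single agents, so the parts of the combination cannot be told apart. Whether libraries of a group are from separate mice is not in the labels, so p-values measure only the spread between these libraries.

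Gemcitabine is a nucleoside analog that stalls DNA replication, and abraxane is a form of paclitaxel, which holds microtubules stable. Stalled replication forks are sensed by the kinase ATR, which activates CHK1, while broken DNA ends are sensed by the MRE11-RAD50-NBN complex and ATM, which activates CHK2. Broken ends are repaired either by homologous recombination, which copies a sister chromatid and runs mainly in S and G2 phase, or by end joining, in which the Ku heterodimer holds the ends for ligation. The Fanconi anemia pathway handles crosslinks between the strands, PARP1 and XRCC1 act at single-strand breaks, and mismatch repair corrects replication errors. Many of these activities are controlled by phosphorylation of proteins, which RNA levels do not show.

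Keratins of epithelial cells were abundant in all 6 libraries, and markers of macrophages and other cell types were present beside them. Krt19, a ductal keratin, stood at 1031 and 1010 TPM in the GAFCP libraries and at 1581 to 1661 TPM in the controls. Ptprc, which encodes the leukocyte antigen CD45, stood at 10.1 and 9.45 TPM with GAFCP and at 2.17 to 3.06 TPM in controls. Summed TPM of 15 macrophage markers was 6159 and 6095 with GAFCP and 1559 to 1664 in controls, with 15 of 15 higher by limma. Summed TPM of 11 T and NK cell markers was 42.3 and 37.7 with GAFCP and 6.597 to 8.92 in controls (9 of 10 tested higher, with 2 further markers not analysed here), and that of 10 pan-leukocyte markers was 330.1 and 341.6 against 109.7 to 130.0 (10 of 10 higher). Fibroblast markers summed to 359.5 and 360.5 TPM with GAFCP and 221.8 to 242.9 TPM in controls (7 of 10 higher, 1 lower), and neutrophil markers to 107.6 and 117.2 TPM against 35.6 to 41.1 TPM (4 of 6 higher). Endothelial markers summed to 6.12 and 6.79 TPM with GAFCP and 5.81 to 6.85 TPM in controls (1 of 3 higher, 1 lower). Epithelial markers summed to 5176 and 5206 TPM with GAFCP and 6806 to 7189 TPM in controls (6 of 8 lower, 0 higher). The largest change among them was that of Epcam, an epithelial adhesion gene of lower level. It stood at 1.68 and 1.39 TPM with GAFCP and at 12.5 to 13.1 TPM in controls (log2 change -2.45). No marker in the table was at 0 in every library, and 4 neutrophil, 3 endothelial, 1 fibroblast and 1 T and NK cell marker stayed under 1 TPM throughout. An exact two-sided permutation test over all 15 arrangements gave p = 0.0667, the smallest it can give, for every sum but the endothelial one (p = 0.6). Adjusted over the 8 sums tested these were 0.0762 and 0.6.

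A second set of transcripts that moved between the groups was that of dividing cells. Of 17 proliferation genes 11 were higher with GAFCP and 1 was lower (median log2 change 0.30), where 19.0% of all genes tested were higher and 28.5% lower, and their summed TPM was 876.0 and 878.8 with GAFCP and 673.4 to 723.2 in controls (exact permutation p = 0.0667, adjusted 0.0762). Top2a, the topoisomerase that untangles chromosomes before mitosis, averaged 65.3 ± 0.822 TPM with GAFCP and 35.6 ± 3.17 TPM in controls (SD, n = 2 and 4). Ccne1, the cyclin of S phase entry, rose by 0.82 on the log2 scale, Mcm5, a helicase subunit of the replication fork, by 0.64 and Pcna, the sliding clamp of DNA polymerases, by 0.33. Mki67, a general marker of cycling cells, averaged 17.8 TPM with GAFCP and 15.3 TPM in controls and did not pass (adjusted p = 0.107 by limma). Both GAFCP libraries were above all controls for Mki67. It passed in 3 of 20 alternatives, among them the fit without control library 3 (adjusted p = 0.0341 by limma). The part of leukocyte and fibroblast RNA, and of the share of dividing cells, in the results on repair genes was not tested. In bulk RNA a change in the number of cells of a type cannot be told apart from a change of RNA per cell.

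The 30 repair genes were expressed at low to moderate levels. Their median in controls was 7.85 TPM, where the median of all genes tested was 15.7 TPM. In controls 12 of them averaged under 5 TPM, 12 were between 5 and 20 TPM and 6 were at or above 20 TPM. The most abundant were H2afx, which encodes the histone variant marked at breaks, at 48.7 ± 2.93 TPM (SD, n = 4), and Xrcc5, the larger Ku subunit, at 44.8 ± 1.80 TPM. Parp1 followed at 36.4 ± 1.58 TPM and Xrcc6, the smaller Ku subunit, at 30.6 ± 2.29 TPM. The lowest were Brca2, a mediator of homologous recombination, at 1.26 ± 0.0753 TPM, Rad51c at 2.18 ± 0.163 TPM and Exo1 at 2.31 ± 0.187 TPM. H2afx and Xrcc5 were next to each other in this order with ranges that overlapped, 45.7 to 52.3 TPM and 42.3 to 46.4 TPM, and so were Xrcc1 and Msh6. Control libraries varied little, the SD being 1.93% of the mean for Mre11a, 8.44% at the median and 13.1% for Prkdc.

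**Figure D1:**
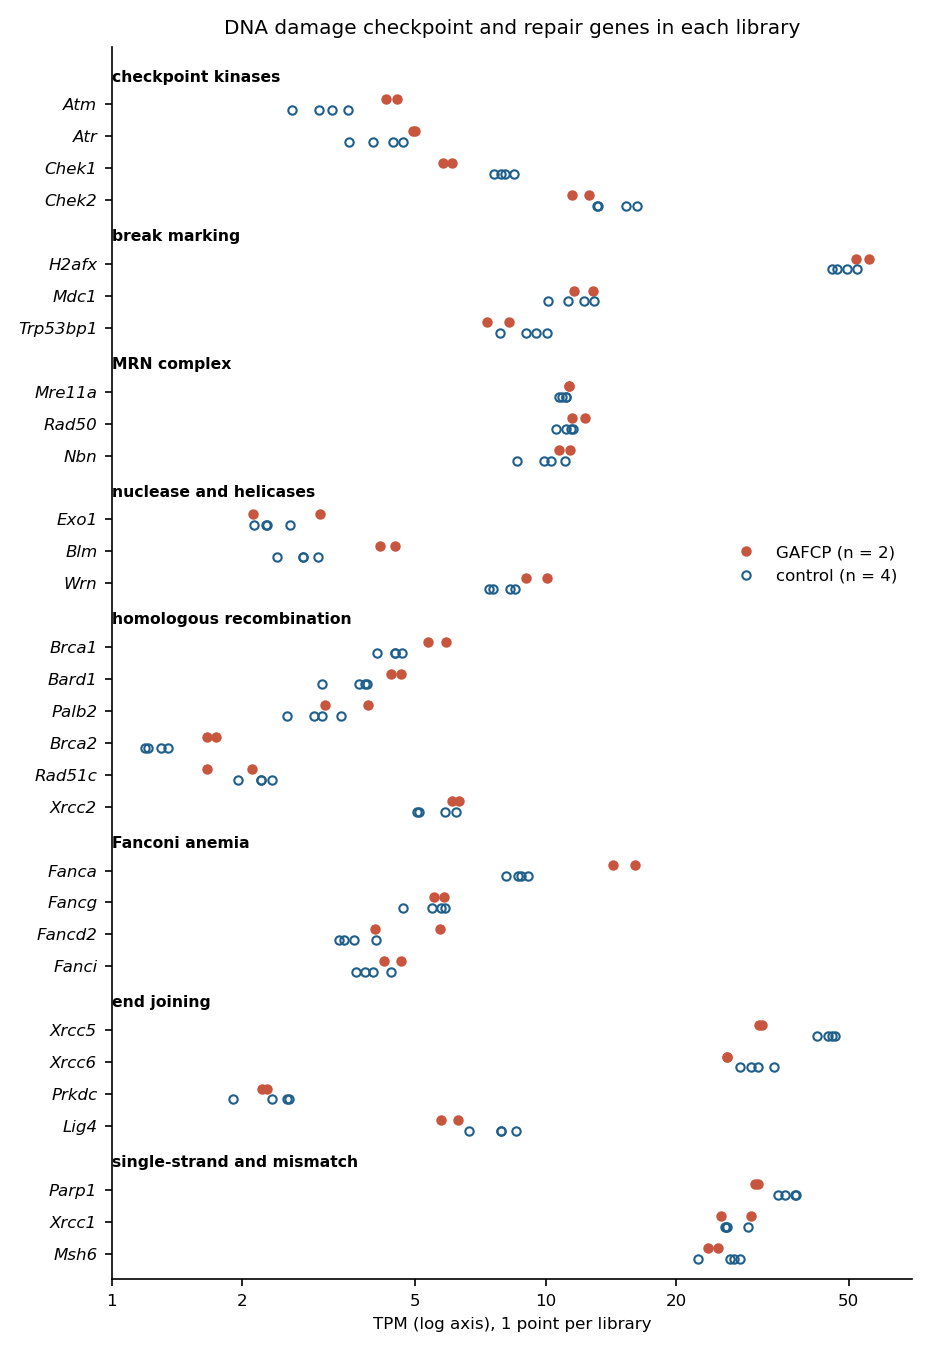
TPM of each of the 30 repair genes in each library, on a log axis, grouped by role, with filled points for the 2 GAFCP libraries and open points for the 4 controls. The filled points of Fanca lie to the right of all open points and those of Xrcc5 to the left, while for genes such as Prkdc and Msh6 they lie among them.

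With GAFCP, 5 of the 30 genes rose and 5 fell, and 20 did not pass, a called share of 33.3% where 47.5% of all genes tested were called (19.0% higher, 28.5% lower). The genes that rose were Fanca (a core protein of the Fanconi anemia pathway), Blm and Wrn (helicases of the RecQ family), Atm and Brca1. The genes that fell were Xrcc5 and Xrcc6 (the Ku heterodimer), Lig4 (the ligase of end joining), Chek1 and Parp1. The largest rise was that of Fanca, a log2 change of 0.74, and the largest fall that of Xrcc5, -0.50, so that 0 of the 30 genes changed 2-fold. Calls are those of limma on log2(TPM + 1) with a Benjamini-Hochberg adjusted p below 0.05 across the 13720 genes. The median log2 change was 0.09 over the 30 genes and -0.07 over all genes tested.

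**Figure D2:**
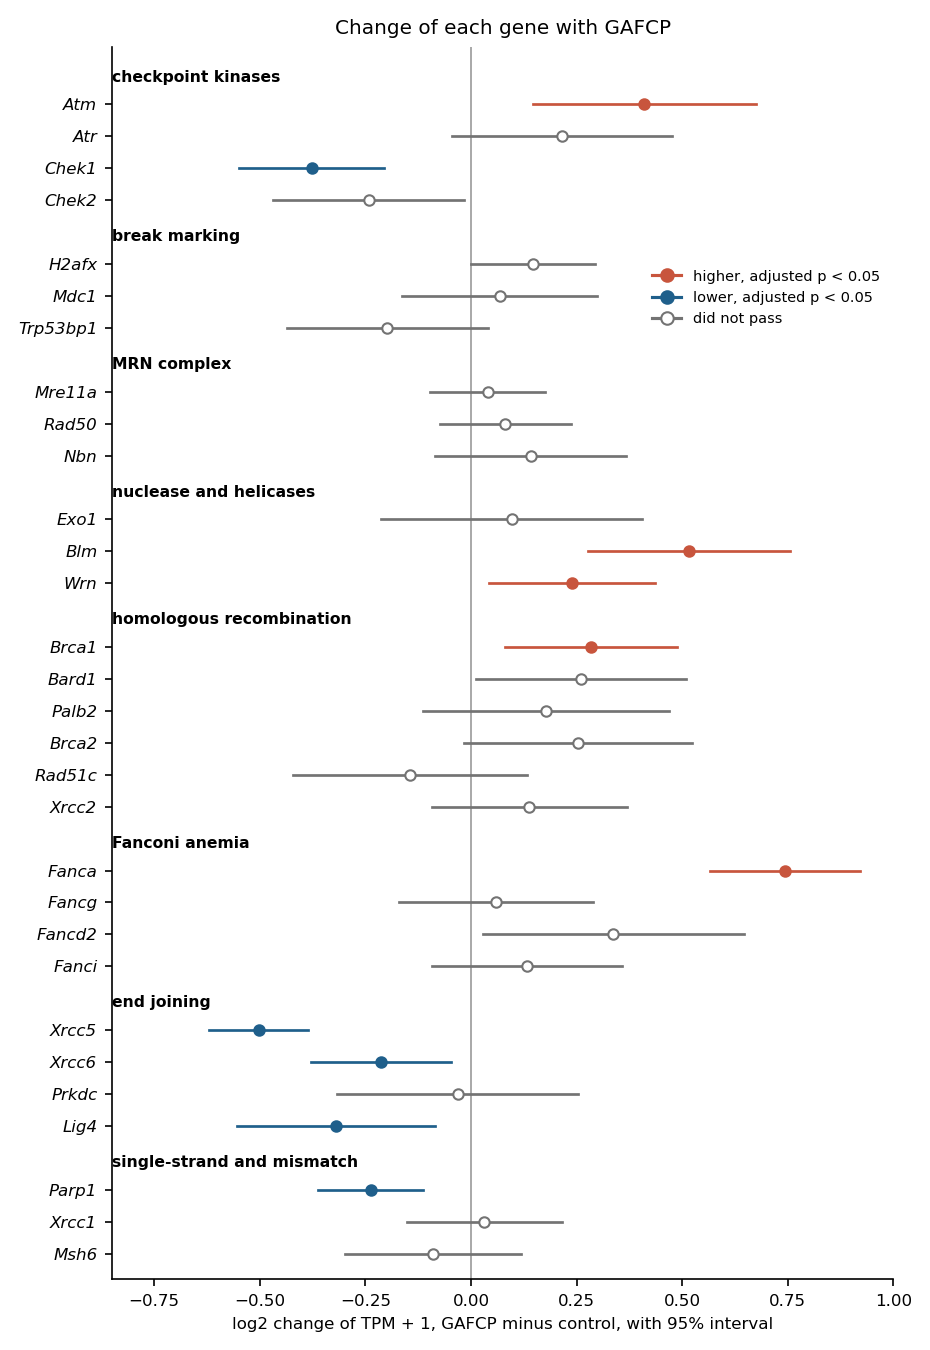
Log2 change of TPM + 1 (GAFCP minus control) with its 95% interval for each of the 30 genes, by role, with filled points for adjusted p under 0.05. Fanca has the largest rise (0.74) and Xrcc5 the largest fall (-0.50), and the 4 end joining genes all have values below 0.

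The 2 GAFCP libraries lay outside the range of the 4 controls for 15 of the 30 genes, above it for 9 and below it for 6. Over all genes tested the groups did not overlap for 61.6%, above for 24.7% and below for 36.9%. The counts of calls depended on single libraries. With all 6 libraries 6515 of all genes tested were called, and that number also fell in each fit named next. Without GAFCP library 1 the test called 3 repair genes, without GAFCP library 2 it called 6 and without control library 4 it called 6. The genes called in every alternative run were 3 of the 10, namely Fanca, Xrcc5 and Chek1, and all 10 kept their direction in every one. With median-of-ratios scaling 10 rose and 5 fell (3460 higher and 3424 lower among all genes, against 2606 and 3909 with TPM as deposited), Atr, Rad50, Bard1, Brca2 and Fancd2 being added.

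**Figure D3:**
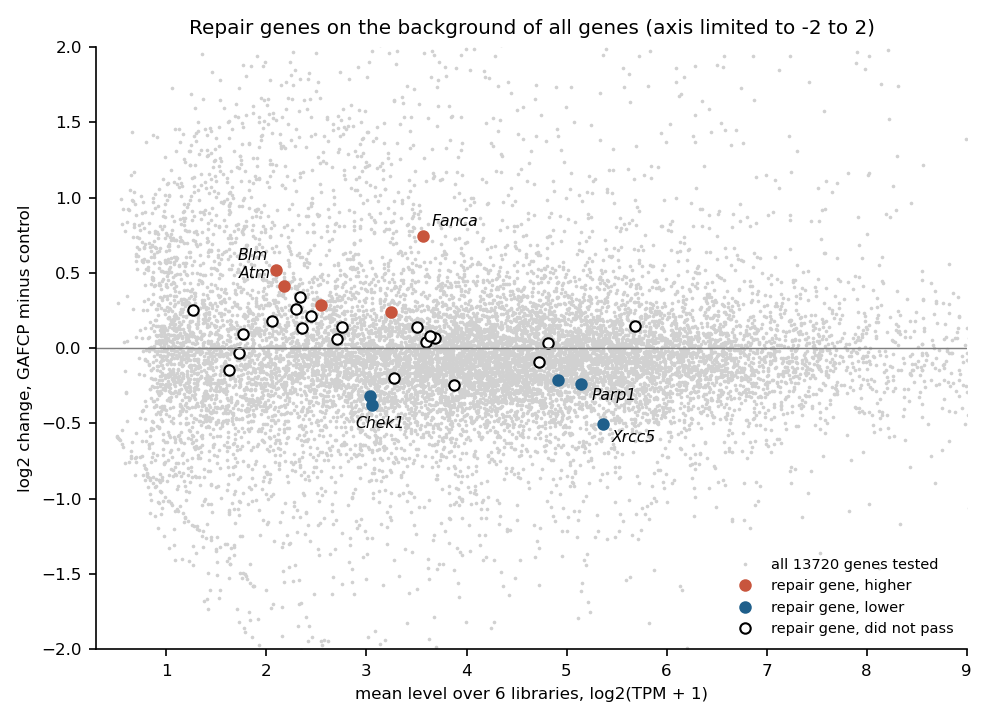
Log2 change (GAFCP minus control) against the mean level over the 6 libraries, log2(TPM + 1), for all genes tested in grey and for the 30 repair genes in color or open circles, with 488 genes outside the axes. All 30 repair genes lie between the log2 changes of Xrcc5 (-0.50) and Fanca (0.74), and other genes at each level lie farther out on both sides.

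Promoter sequences are shown for the strongest rise (Fanca), for 2 genes that fell (Xrcc5, Parp1) and for Mdc1, which did not pass and holds an E2F-type site. Each is the 250 bases before the RefSeq transcription start on GRCm38.p6, written 5′ to 3′ on the strand of the gene, with capitals for CCAAT and for the E2F-type motif on either strand.
Fanca, chr8:123318577-123318826, minus strand: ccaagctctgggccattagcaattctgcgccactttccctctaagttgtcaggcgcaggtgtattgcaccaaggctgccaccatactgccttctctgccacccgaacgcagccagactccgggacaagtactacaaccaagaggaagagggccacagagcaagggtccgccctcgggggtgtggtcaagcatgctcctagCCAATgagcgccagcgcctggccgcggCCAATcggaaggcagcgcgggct
Xrcc5, chr1:72307171-72307420, plus strand: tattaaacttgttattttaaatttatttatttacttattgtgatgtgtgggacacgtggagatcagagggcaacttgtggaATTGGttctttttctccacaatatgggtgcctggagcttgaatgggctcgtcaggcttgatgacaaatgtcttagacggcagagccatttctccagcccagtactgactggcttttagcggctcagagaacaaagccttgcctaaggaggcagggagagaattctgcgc
Parp1, chr1:180568641-180568890, plus strand: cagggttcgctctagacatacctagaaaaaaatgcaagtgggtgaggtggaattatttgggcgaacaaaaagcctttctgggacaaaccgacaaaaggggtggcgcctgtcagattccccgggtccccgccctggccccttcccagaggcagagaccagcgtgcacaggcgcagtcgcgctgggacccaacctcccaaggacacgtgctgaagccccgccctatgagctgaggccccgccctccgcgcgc
Mdc1, chr17:35841248-35841497, plus strand: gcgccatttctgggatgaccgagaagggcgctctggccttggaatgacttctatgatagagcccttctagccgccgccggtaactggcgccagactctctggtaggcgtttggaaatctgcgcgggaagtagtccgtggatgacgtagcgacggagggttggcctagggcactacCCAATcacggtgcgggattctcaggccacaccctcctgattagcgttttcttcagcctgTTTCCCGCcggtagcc

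In RefSeq windows of 300 bases (250 before the start and 50 after it), which were found for 22 of the 30 genes, an E2F-type octamer (TTTCCCGC, TTTGGCGC, TTTCGCGC or TTTGCCGC, both strands) was present in 8. E2F factors drive genes of S phase entry. Among all 27025 genes with such a window 2.61% held one. Of the 13 genes with a window that did not pass the test 7 held the octamer (Bard1, Brca2, Chek2, Fancg, Mdc1, Msh6 and Rad51c). It was held by 1 of 5 fallen genes with a window (Xrcc6) and by 0 of 4 risen ones. CCAAT, the box bound by the factor NF-Y, was present in 12 of 22, against 41.1% of all genes. All 4 risen genes with a window (Fanca, Blm, Atm and Brca1), 2 of 5 fallen ones and 6 of 13 that did not pass held it. A CHR-type motif (TTTGAA or TTCGAA) was found in 2 of 22, against 21.7% of all genes. These are matches of letters in a short window and not measured binding sites.

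Among the checkpoint kinases Atm rose and Chek1 fell. Atm, the kinase of double-strand breaks (chromosome 9, 53439149 to 53536740, mm10), stood at 4.54 and 4.28 TPM in the GAFCP libraries and at 3.23, 3.50, 2.60 and 3.003 TPM in the controls. Both GAFCP libraries were above all controls, and the log2 change was 0.41 ± 0.11 (SE; adjusted p = 0.0193 by limma). Chek1, the kinase activated by ATR that holds the cell cycle at stalled forks (chromosome 9, 36708482 to 36727065), stood at 5.79 and 6.07 TPM with GAFCP and at 8.06, 8.47, 7.88 and 7.61 TPM in controls. The groups did not overlap, with a log2 change of -0.38 ± 0.07 (SE; adjusted p = 0.00412). Atr, the kinase of stalled forks, stood at 4.999 and 4.94 TPM with GAFCP, above the controls at 3.51 to 4.70 TPM, but did not pass (log2 change 0.22, 95% interval -0.04 to 0.48, adjusted p = 0.152). Chek2, the kinase activated by ATM, stood at 11.5 and 12.6 TPM with GAFCP, below the controls at 13.2 to 16.2 TPM, and did not pass either (-0.24, interval -0.47 to -0.02, adjusted p = 0.0754). Atm lost its call when either GAFCP library was left out (adjusted p = 0.127 without the first and 0.079 without the second), and adjusted p over 19 alternatives ran from 0.00485 to 0.127. Chek2 was called when control library 3 was left out (adjusted p = 0.0469, range 0.0256 to 0.343).

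The break-marking genes among the 30 showed no call. H2afx, the histone that ATM and its relatives phosphorylate around breaks, stood at 55.8 and 52.0 TPM with GAFCP and 47.0, 45.7, 49.7 and 52.3 TPM in controls, so that the groups overlapped (log2 change 0.15, interval -0.00 to 0.29, adjusted p = 0.0939). Mdc1, which binds the phosphorylated histone, stood at 11.6 and 12.8 TPM with GAFCP and 10.1 to 12.9 TPM in controls. Trp53bp1, whose protein favors end joining over resection, stood at 7.35 and 8.23 TPM with GAFCP and 7.84 to 10.1 TPM in controls (log2 change -0.20, adjusted p = 0.15). It was called without control library 3 (adjusted p = 0.0285), over a range of 0.0285 to 0.527. H2afx is 1 of many related H2A genes, and how reads were divided among them was not examined here. Trp53bp1 shares 15.04% of its exon bases with Tubgcp4 on the opposite strand, which averaged 13.5 TPM in both groups.

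The subunits of the MRE11-RAD50-NBN complex, the first sensor of broken ends, had no call either. Mre11a, its nuclease, varied least among the controls, at 11.3 and 11.4 TPM with GAFCP and 11.2, 11.2, 10.9 and 10.7 TPM in controls, a log2 change of 0.04 with an interval of -0.10 to 0.18. Rad50, the ATPase that tethers ends, averaged 11.9 ± 0.585 TPM with GAFCP and 11.2 ± 0.438 TPM in controls. Nbn, which recruits ATM, averaged 11.1 ± 0.449 TPM with GAFCP and 9.96 ± 1.04 TPM in controls. Rad50 was 1.09 and 1.01 times Mre11a in the GAFCP libraries and 0.970 to 1.04 times Mre11a in the controls. Nbn was 1.01 and 0.946 times Mre11a in the GAFCP libraries and 0.786 to 0.992 times Mre11a in the controls.

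Both RecQ helicases among the 30 rose, and Exo1 did not pass. Blm, the helicase that dissolves joined chromatids and aids resection (chromosome 7, 80454733 to 80535119), stood at 4.497 and 4.16 TPM with GAFCP and at 2.76, 2.76, 2.41 and 2.98 TPM in controls. The groups were well apart, with a mean 1.59 times that of controls and a log2 change of 0.52 ± 0.10 (SE; adjusted p = 0.0044). Wrn, a helicase with nuclease activity (chromosome 8, 33234384 to 33385527), stood at 9.03 and 10.1 TPM with GAFCP and at 8.26, 8.53, 7.40 and 7.55 TPM in controls (log2 change 0.24 ± 0.08, adjusted p = 0.0486). Exo1, the exonuclease of resection and mismatch repair, stood at 2.11 and 3.02 TPM with GAFCP, on either side of the controls at 2.13 to 2.57 TPM. With GAFCP library 1 left out Blm missed the threshold (adjusted p = 0.0523, range over 19 alternatives 0.00138 to 0.0523). Wrn passed in 11 of 20 alternatives (adjusted p from 0.00807 to 0.303), and leaving out either GAFCP library or control library 1, 3 or 4 ended its call.

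Of the homologous recombination genes Brca1 rose. BRCA1 and its partner BARD1 form a ubiquitin ligase that promotes resection and, through PALB2, brings BRCA2 to the break. Brca1 (chromosome 11, 101488764 to 101551955) stood at 5.35 and 5.90 TPM with GAFCP and at 4.67, 4.504, 4.10 and 4.48 TPM in controls, above every control (log2 change 0.28 ± 0.09, SE; adjusted p = 0.0295). Bard1 stood at 4.39 and 4.64 TPM with GAFCP and 3.04 to 3.87 TPM in controls, also without overlap, and did not pass (0.26, interval 0.01 to 0.51, adjusted p = 0.08). Brca2 stood at 1.65 and 1.74 TPM with GAFCP and 1.19 to 1.35 TPM in controls (0.25, interval -0.02 to 0.52, adjusted p = 0.109). Palb2 had a log2 change of 0.18 with overlapping groups. Xrcc2 and Rad51c, whose proteins act in strand exchange, had log2 changes of 0.14 and -0.14, also with overlapping groups. Brca1 passed in 11 of 19 alternatives, the exceptions including each fit without control library 2 (adjusted p = 0.0528), control library 4 (0.0631), GAFCP library 1 (0.0746) and GAFCP library 2 (0.213). The lowest of these genes, Brca2, lay near the level where log2(TPM + 1) shrinks changes, its mean TPM being 1.34 times that of controls.

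Fanca had the largest change of the 30 genes, and the other Fanconi anemia genes did not pass. FANCA and FANCG belong to the core complex that attaches ubiquitin to FANCD2 and FANCI at a crosslink. Fanca (chromosome 8, 123268300 to 123318576) stood at 16.1 and 14.3 TPM with GAFCP and at 8.78, 8.65, 8.12 and 9.11 TPM in controls. Its mean was 1.75 times that of controls, and the log2 change was 0.74 ± 0.08 (SE; adjusted p = 1.4e-04 by limma), and it passed in all 20 alternatives (adjusted p at most 0.00729). Fancg stood at 5.54 and 5.85 TPM with GAFCP and 4.69 to 5.85 TPM in controls, so that Fanca was 2.91 and 2.44 times Fancg with GAFCP and 1.501 to 1.73 times in controls. Fancd2 stood at 5.71 TPM in GAFCP library 1 and at 4.04 TPM in GAFCP library 2, inside the control range of 3.34 to 4.05 TPM. It passed without GAFCP library 2 (adjusted p = 0.0246) and not with both libraries (adjusted p = 0.07). Fanci averaged 4.44 ± 0.271 TPM with GAFCP and 3.97 ± 0.324 TPM in controls. It shares 15.95% of its exon bases with Polg on the opposite strand, which averaged 20.6 TPM with GAFCP and 18.8 TPM in controls. Fanca shares 10.5% of its exon bases with Zfp276 on the opposite strand, and since the labels do not say whether strand was kept, reads from those bases cannot be told apart. Zfp276 averaged 16.5 TPM with GAFCP and 18.5 TPM in controls and did not pass (log2 change -0.16, adjusted p = 0.196).

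**Figure D4:**
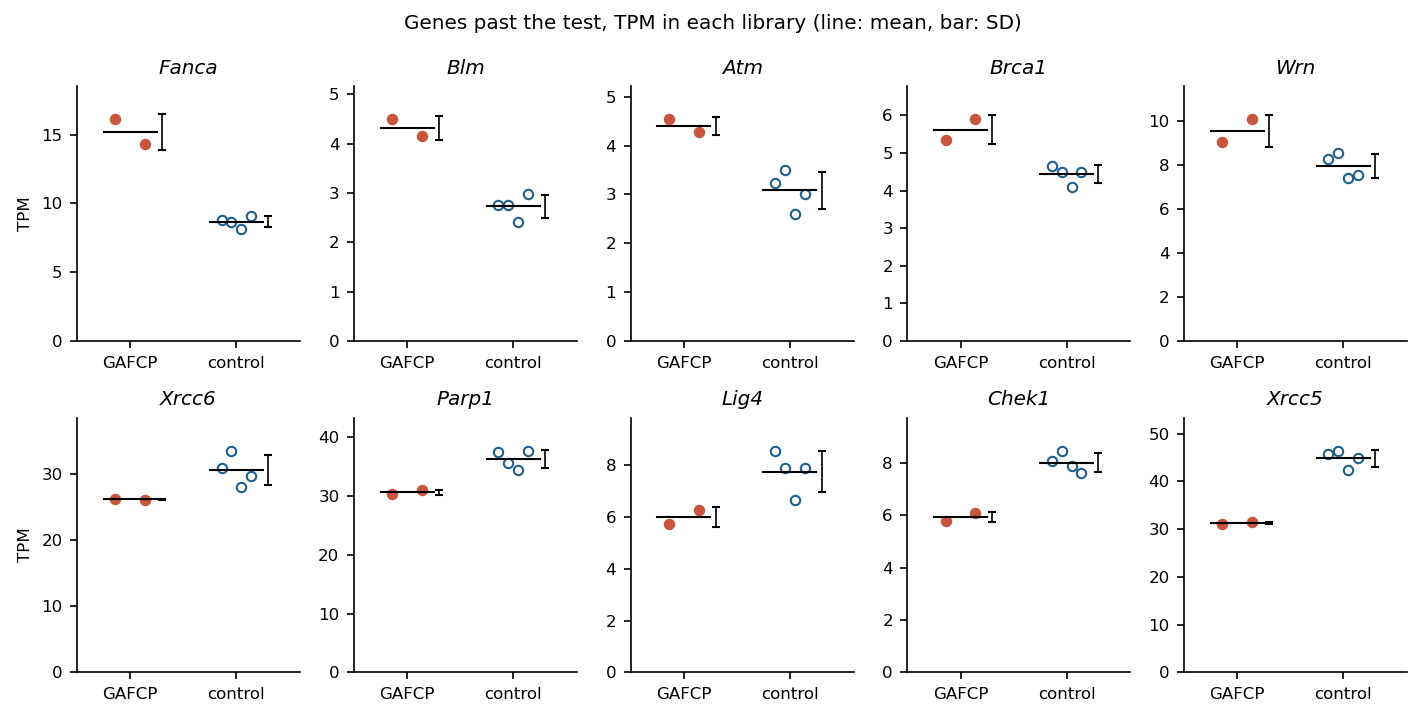
TPM of the 10 repair genes past the test in each library, GAFCP left and control right, with the mean as a line and the SD as a bar, each axis starting at 0. In the upper row, from Fanca to Wrn, both GAFCP points lie above all 4 controls, and in the lower row, from Xrcc6 to Xrcc5, both lie below.

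Of the 4 end joining genes 3 fell, where 28.5% of all genes tested were lower. Leaving out either GAFCP library or control library 1, 2 or 4 left 1 of the 4, Xrcc5. Xrcc5 (chromosome 1, 72307421 to 72394952) stood at 31.1 and 31.5 TPM with GAFCP and at 45.7, 46.4, 42.3 and 44.9 TPM in controls. Its mean was 0.699 times that of controls, with a log2 change of -0.50 ± 0.05 (SE; adjusted p = 1.3e-04), and it passed in all 20 alternatives (adjusted p at most 0.00472). Xrcc6 (chromosome 15, 81987835 to 82040085) stood at 26.3 and 26.2 TPM with GAFCP and at 30.9, 33.6, 28.1 and 29.8 TPM in controls, a smaller difference without overlap (-0.21 ± 0.07, SE; adjusted p = 0.04). The Ku subunits work as a heterodimer, and their ratio, Xrcc5 over Xrcc6, was 1.19 and 1.20 with GAFCP and 1.38 to 1.51 in controls. An exact two-sided permutation test of this ratio gave p = 0.0667, the smallest possible (adjusted p = 0.222 over 10 ratios).

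Lig4, which seals the joined ends (chromosome 8, 9969049 to 9977686), stood at 5.73 and 6.27 TPM with GAFCP and at 8.56, 7.88, 6.67 and 7.91 TPM in controls, without overlap (log2 change -0.32 ± 0.10, SE; adjusted p = 0.033). Prkdc, the catalytic subunit of the DNA-dependent protein kinase that Ku recruits, stood at 2.28 and 2.22 TPM with GAFCP, among the controls at 1.90 to 2.56 TPM (-0.03, interval -0.32 to 0.25). Xrcc6 passed in 12 and Lig4 in 13 of 20 alternatives, and both failed without control library 1, 2 or 4 and without either GAFCP library (adjusted p from 0.0549 to 0.156 for Xrcc6 and from 0.0657 to 0.194 for Lig4). Xrcc6 shares 7.69% of its exon bases with Desi1 on the opposite strand, which rose (log2 change 0.33, adjusted p = 0.00291).

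Of the single-strand break and mismatch genes Parp1 fell. Parp1, the sensor that builds poly(ADP-ribose) chains at nicks (chromosome 1, 180568924 to 180601254), stood at 30.4 and 31.0 TPM with GAFCP and at 37.6, 35.7, 34.4 and 37.7 TPM in controls. The groups did not overlap (log2 change -0.24 ± 0.05, SE; adjusted p = 0.00796), and with GAFCP library 1 left out the call ended (adjusted p = 0.0667, range 0.00121 to 0.0667). Xrcc1, the scaffold that PARP1 calls to the nick, stood at 29.8 and 25.4 TPM with GAFCP and 26.0 to 29.3 TPM in controls (0.03, interval -0.15 to 0.22). Msh6, which finds mismatched bases, stood at 25.03 and 23.7 TPM with GAFCP and 22.4 to 28.1 TPM in controls (-0.09, interval -0.30 to 0.12). Msh6 was called without control library 3 (adjusted p = 0.0284), over a range of 0.0284 to 0.982. Across the 20 genes that did not pass, the half-width of the 95% interval ran from 0.14 to 0.31 on the log2 scale. Changes smaller than the half-width could not be told from no change with 6 libraries. These intervals are not adjusted for the number of genes tested, so that larger changes could also miss the test. This was so for Chek2 (interval -0.47 to -0.02), Bard1 (0.01 to 0.51) and Fancd2 (0.03 to 0.65).

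The other genes of these pathways, 116 in 9 lists, moved in both directions. Of 114 tested 26 rose and 14 fell (35.1% called, where 47.5% of all genes were), with a median log2 change of 0.02. The 40 calls became 18 without GAFCP library 1 and 17 without GAFCP library 2. The list of other checkpoint genes had 6 of 14 higher (42.9%) and 0 lower, where 19.0% of all genes tested were higher and 28.5% lower. The 6 became 2 without GAFCP library 1, 2 without GAFCP library 2 and 9 with median-of-ratios scaling. Among them Topbp1, which activates ATR, averaged 23.1 ± 1.90 TPM with GAFCP and 18.1 ± 1.56 TPM in controls (log2 change 0.34), Wee1, a kinase that restrains mitosis, rose by 0.32, and Timeless, of the fork protection complex, by 0.31. Chek1, of the same pathway, was lower with GAFCP (log2 change -0.38). The calls of Wee1 and Timeless ended without either GAFCP library and that of Topbp1 without the second (adjusted p from 0.0596 to 0.131).

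Of 23 other homologous recombination genes 7 were higher (30.4%) and 0 lower (median 0.17), beside 19.0% higher and 28.5% lower over all genes tested. The 7 became 2 without GAFCP library 1, 1 without GAFCP library 2 and 12 with median-of-ratios scaling. Rpa2, which coats single strands, rose by 0.22 (adjusted p = 0.0407). Its call ended without either GAFCP library or without control library 1, 3 or 4 (adjusted p from 0.0535 to 0.193). The proliferation list had 11 of 17 higher, and a link between these lists was not tested. Of 14 other Fanconi genes 1 was higher, Ube2t, the ubiquitin-conjugating enzyme of the pathway (log2 change 0.27), and the list's median was -0.10. Of 10 break-marking genes 2 were higher, Uimc1 (0.37) and Paxip1 (0.18), and 1 was lower, Babam1 (-0.19), which encodes a subunit of the same BRCA1-A complex as Uimc1. Ube2t was not called without either GAFCP library (adjusted p at most 0.107), Babam1 without the second (0.136), and Paxip1 without either or without control library 1, 2 or 4 (at most 0.183).

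The other end joining genes moved in both directions, with 3 of 8 higher and 4 lower, beside 19.0% higher and 28.5% lower over all genes tested. Without GAFCP library 1, and likewise without GAFCP library 2, 1 was higher and 3 were lower. Paxx, a cofactor of Ku, averaged 17.3 ± 1.70 TPM with GAFCP and 26.5 ± 2.39 TPM in controls (log2 change -0.59, adjusted p = 0.00138), and Nhej1, which aligns ends with XRCC4, fell by 0.48 on the log2 scale. Xrcc4, the partner of LIG4, stood at 7.80 and 8.76 TPM with GAFCP and 9.96 to 11.4 TPM in controls (-0.31, adjusted p = 0.0163), and Poll, a gap-filling polymerase, fell by 0.35. Dclre1c, which encodes the nuclease Artemis, stood at 7.01 and 7.65 TPM with GAFCP and 3.99 to 4.36 TPM in controls (0.71 ± 0.08, SE; adjusted p = 2.9e-04). The calls of Paxx, Poll and Dclre1c held without any 1 library, while Nhej1 lost its call without GAFCP library 2 (adjusted p = 0.0529) and Xrcc4 without GAFCP library 1 (0.143). The rise of the polymerase gene Polm, 0.18 on the log2 scale, did not pass whichever 1 of the 6 libraries was left out (adjusted p from 0.0549 to 0.295).

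The lists of base excision, mismatch and nucleotide excision genes were called in shares of 42.1%, 16.7% and 33.3%, below the 47.5% of all genes tested (19.0% higher, 28.5% lower). Of 19 base excision genes 5 were higher and 3 lower, which became 1 and 1 without GAFCP library 1 and 3 and 1 without GAFCP library 2. Ung, which removes uracil, rose by 0.56 on the log2 scale (12.95 ± 0.867 TPM with GAFCP and 8.47 ± 0.980 TPM in controls), and Tdg, a thymine glycosylase, by 0.47. Apex1, the main abasic endonuclease, changed by -0.34 and shares 61.7% of its exon bases with Pip4p1 on the opposite strand. Of 6 other mismatch genes 0 were higher and 1 was lower. Of 15 nucleotide excision genes 1 was higher, Rad23b (log2 change 0.24), and 4 were lower. With control libraries 1 and 2 alone 5 were lower, and with control libraries 3 and 4 alone 2 were. The lower ones included the damage sensors Xpc (-0.42) and Ddb2 (-0.40), and Ddb1 (-0.41), the partner of Ddb2. Ddb2 shares 23.8% of its exon bases with Acp2, which did not pass (0.03). Of 5 translesion genes tested Rad18, the ubiquitin ligase that switches polymerases, rose by 0.50 and Polk, a bypass polymerase, fell by 0.38. The direct reversal gene on this list did not reach the filter and was not tested. Single libraries decided the calls of Tdg and Rad18 (GAFCP library 1, adjusted p = 0.108 and 0.0609 without it), Ddb2 (GAFCP library 2, 0.146) and Polk (either GAFCP library or control library 1, at most 0.137).

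**Figure D5:**
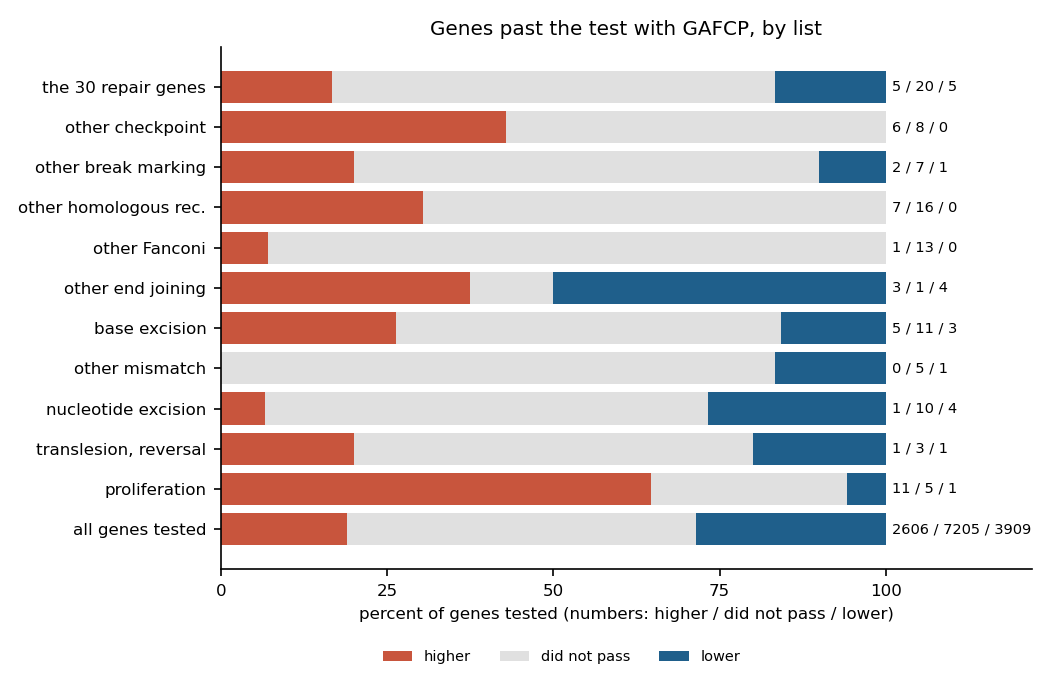
Percent of tested genes in each list that were higher, did not pass or were lower with GAFCP by limma at an adjusted p under 0.05, with the counts at the right. The checkpoint and homologous recombination lists hold higher calls and 0 lower ones, the end joining list has 4 lower and 3 higher, and the bottom bar gives all 13720 genes tested.

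Ratios between partner genes compare them within a library. The exact permutation test was run on 10 ratios of TPM within a library, and 3 had groups that did not overlap, each at p = 0.0667 (adjusted p = 0.222). These were Xrcc5 over Xrcc6 and Fanca over Fancg, given above, and Atm over Atr, at 0.908 and 0.866 with GAFCP and 0.686 to 0.790 in controls. Brca1 over Bard1 was 1.22 and 1.27 with GAFCP and 1.17 to 1.35 in controls (exact permutation p = 0.867), and Lig4 over Xrcc4 was 0.734 and 0.716 with GAFCP and 0.669 to 0.860 in controls (p = 0.933). Chek2 over Chek1 was 1.99 and 2.08 with GAFCP and 1.64 to 2.13 in controls (exact permutation p = 0.4).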

How the data were processed

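Total RNA of sorted tumor cells was isolated with a column kit, per the labels' protocols. The authors deposited TPM per gene, and the submitters' processing notes name Salmon and mm10. Version, annotation, strandedness and sort gate: not given in the sources used here. TPM keeps no depth: depth is unknown, and only the library-to-library spread sets the precision.

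Genes reaching 1 TPM in 2 or more of 6 libraries entered limma 3.58.1 (R 4.3.3) as log2(TPM + 1), fitting the variance as a trend on the mean (residual degrees of freedom 4), and Benjamini-Hochberg adjustment ran over all of them. This scale understates changes of low genes. Log2 changes are GAFCP minus control. The test was tried on simulated data. Groups came from sample titles.

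The 30 genes, the other lists and the named-gene rule were chosen with earlier results of these data known. The rule named all 30 genes and, of each other list, up to 3 called genes with the largest change and a mean of at least 5 TPM, with Mki67, Pcna, Ptprc and Krt19. Outside it, after values were seen, came Epcam, Xrcc4, Poll, Polm, Rad23b, overlapping genes and those in the last part. Gene positions are GENCODE M21 (GRCm38, mm10) and promoters RefSeq GRCm38.p6. Exon overlap counted from 1 base. Some genes that the rule names are not reported here.

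Alternatives changed the pseudocount (0.1, 5), filter, scaling, variance model, library weights and replicate block, left out each library, or used either pair of controls.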

Additional observations from a re-analysis of the deposited data

Results flagged for a closer look

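In 8 of 90 genes and summed lists examined, 1 control library stood apart from the other 3 by more than Dixon's 95% critical value for 4 samples, and chance flags about 1 in 20. Among the 30 repair genes this was Xrcc1, at 29.3 TPM in control library 2. Control library 3 was the lowest for Timeless (8.35 TPM), Polq (0.786 TPM), Mki67 (12.9 TPM) and the summed mismatch genes other than Msh6 (61.3 TPM), and the highest for Ccne1 (8.04 TPM). Uimc1 was highest in control library 1 (8.94 TPM) and Dclre1c in control library 4 (4.36 TPM).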

How the results depend on the processing

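Of the 10 called repair genes all kept their direction in every alternative run, and 3 passed in every one. The 10 calls became 6 with no filter on low values (3 higher, 3 lower) and 6 with a minimum mean of 5 TPM, where 18 of the 30 genes were tested, 1 was higher and 9 had groups that did not overlap. Over all genes, calls rose slightly with no filter and fell with that minimum mean. Median-of-ratios scaling gave 10 repair genes higher. Control libraries 3 and 4 alone gave 3 lower. Without each library in turn the calls ran from 3 to 12 (1 to 4 higher, 2 to 8 lower), the groups without overlap from 17 to 23, all genes called from 4258 to 7226 (1715 to 2610 higher, 2514 to 4641 lower) and the other pathway genes called from 17 to 43. A GAFCP library left alone was taken to vary like the controls. The count of groups without overlap was 15 with all 6 libraries. Leaving out a library can only keep or raise it, so its rise is no test of the result. The cause of the other shifts was not tested. The replicate numbers share only a number, with deviations of GAFCP and control libraries of the same number correlated at -0.01 and -0.02. Replicate numbers 3 and 4 occur only among controls, so the fit with the replicate block compares GAFCP with control libraries 1 and 2 only. In it 9 repair genes were called, 3 of them higher, and 5894 of all genes. The list of other homologous recombination genes had 4 higher, against 7 without the block. Of the 20 genes that did not pass, 5 changed sign in some alternative without being called. Depth is unknown, and n = 2 and 4 limits the precision.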

Other observations

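Several repair genes of low level, singled out after their values were seen, were higher with GAFCP and fall below the level used to name genes above. Brip1, a helicase that partners BRCA1, stood at 3.23 and 3.16 TPM with GAFCP and 1.53 to 1.81 TPM in controls (log2 change 0.63 ± 0.11, SE; limma adjusted p = 0.00189). Clspn, the adaptor through which ATR activates CHK1, stood at 5.37 and 5.76 TPM with GAFCP and 2.71 to 3.59 TPM in controls (0.63, adjusted p = 0.00241). Polq, the polymerase of an alternative end joining route, stood at 1.90 and 1.85 TPM with GAFCP and 0.786 to 1.04 TPM in controls (0.55, adjusted p = 0.00927). Rad54l, which aids strand invasion, stood at 6.13 and 6.37 TPM with GAFCP and 3.64 to 5.07 TPM in controls (0.49, adjusted p = 0.0109). Polq and Rad54l lost their calls without either GAFCP library (adjusted p from 0.0561 to 0.0778). Rad54l shares 15.4% of its exon bases with Lrrc41 on the opposite strand, which fell (log2 change -0.23, adjusted p = 0.0144). In each of these genes both GAFCP libraries lay above all controls, as they did for 24.7% of all genes tested.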
